A study of Mus musculus with 6 samples.

Results

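The genes described here are those of the B lymphocyte lineage. Ighm, Ighg1, Ighg2b and Igkc are immunoglobulin constant region genes, and Igj encodes the joining chain. Cd79a, Cd79b and Ms4a1 are B cell surface genes, and Mzb1 is a gene of antibody assembly. All were chosen as the rows of the gene table that carry 1 of these 9 symbols. Of the 9, 7 had such a row, among 33924 rows in all. Ighg2b and Mzb1 had no row under their symbol. The row named 2010001M09Rik, which RefSeq lists as an older name of Mzb1, is described separately.

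RNA was measured in RPE/choroid of C57BL/6J mice, the pigmented cell layer behind the retina scraped from the eyecup together with the vascular layer beneath it, with a pair of eyes in each sample. There were 3 libraries of young mice, 1 to 2 months old by the labels, and 3 of aged mice, 20 to 24 months by their titles and 22 to 24 months by their time label. The labels call all animals male, although the study's methods speak of males and females and give an older range for the young group. Ribosomal RNA was depleted before a stranded kit was used, and transcripts were not selected for poly(A) tails.

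The study compared aged with young tissue, but the table holds no value per library. It gives 1 level per gene, the authors' mean of normalized counts over all 6 libraries, and the result columns of the authors' own comparison, which were not used here. Whether any of these genes differed with age was therefore not analysed here, and no value carries an SD, a range or a test. Depth per library is unknown here for the same reason. A level can come from many cells with little RNA or few cells with much, from blood within the vessels or from the tissue, and from 1 mouse or all of them, and these cannot be told apart in a single mean of bulk tissue.

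B cells carry an antibody on their surface as the B cell receptor, in which the immunoglobulin binds antigen and the partners Cd79a and Cd79b pass the signal into the cell. An antibody is built of heavy and light chains, each with a variable part that differs from cell to cell and a constant part shared by all chains of its class. Naive B cells use the constant gene Ighm, and activated cells can switch to another such as Ighg1. Plasma cells, which descend from B cells, lose much of the surface receptor and secrete antibody in large amounts, and the choroid is a vascular tissue that resident and passing leukocytes are known to reach.

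Of the 7 genes, Ighm, Igkc and Igj held most of the signal. Ighm, the constant gene of the IgM heavy chain, had a mean normalized count of 713.8, which was 59.1% of the summed level of the 7 genes. Igkc, the constant gene of the kappa light chain, had 186.1. Igj, whose product joins IgM and IgA subunits into polymers and aids their secretion, had 140.2. These were the 3 genes of the set with a level of at least 100, which 37.9% of all rows reached, and all 7 had a level of at least 10, which 53.0% of all rows reached.

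The surface genes and Ighg1 were lower. Cd79b had a mean normalized count of 78.14. Ms4a1, which encodes the B cell antigen CD20, had 58.79. Cd79a had 18.72, and Ighg1, the constant gene of the IgG1 heavy chain, was the lowest of the 7 with 12.16.

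Summed, the 7 genes had 1208 of 19192071 normalized counts, or 0.00629% of the signal of the tissue. Ranked among the 26681 genes with a level above 0, Ighm exceeded 77.3% of them, Igkc 57.9% and Igj 54.8%. The receptor genes stood near or under the median level of 82.1, with Cd79b above 49.5% of the genes, Ms4a1 above 47.2% and Cd79a above 38.2%. Ighg1 exceeded 34.4%. In all, 4 of the 7 genes lay below that median.

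Longer transcripts collect more reads, so levels of different genes were set side by side per kilobase of coding sequence. Lengths came from the GENCODE M21 annotation. The paper derived its normalized counts from TPM values, a unit already scaled by transcript length. Whether the levels still carry the effect of length was not tested. If they do not, every value and ratio per kb divides by length again, and levels not divided by length are the ones to compare. Per kb of coding sequence, Igkc (581.6 normalized counts per kb) and Ighm (500.2) were the highest, and the ratio of Ighm to Igkc was 0.860. That ratio was 3.84 for the levels not divided by length and 0.375 with 200 bases taken off each coding length as a rough effective length, where Ighm had 581.7 and Igkc 1551, so it rests on the length used for the short Igkc. Igj followed with 294.0 per kb. Cd79b had 90.45, Ms4a1 67.34, Cd79a 28.36 and Ighg1 10.33 per kb. Since no spread between mice is known, it cannot be said which neighbours in this order differ.

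**Figure D1:**
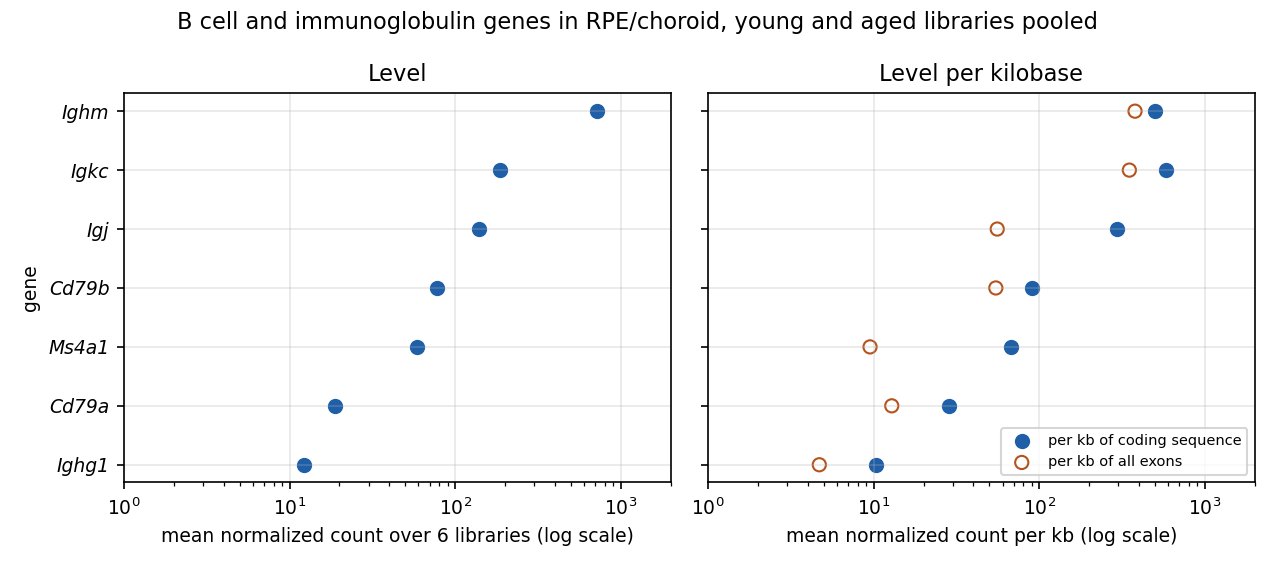
Left, the authors' mean normalized count over 6 libraries for the 7 genes, and right, the same value per kilobase of coding sequence (filled) or of all annotated exons (open), both on log scales, with 1 point per gene and no error bars because no value per library was analysed. Levels run from 12.16 for Ighg1 to 713.8 for Ighm, and per kilobase of coding sequence Igkc and Ighm are the highest.

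The length chosen matters most where the untranslated ends are long. Ms4a1 has 873 coding bases and 6187 bases in all its annotated exons together, and its level was 9.50 per kb of exons. Igj, with 477 coding bases and 2517 exonic bases, had 55.71 per kb of exons, which was close to the 54.61 of Cd79b. Ighm and Igkc changed places, with 378.5 and 349.8 per kb of exons, and Ighg1 was again the lowest with 4.69.

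**Figure D2:**
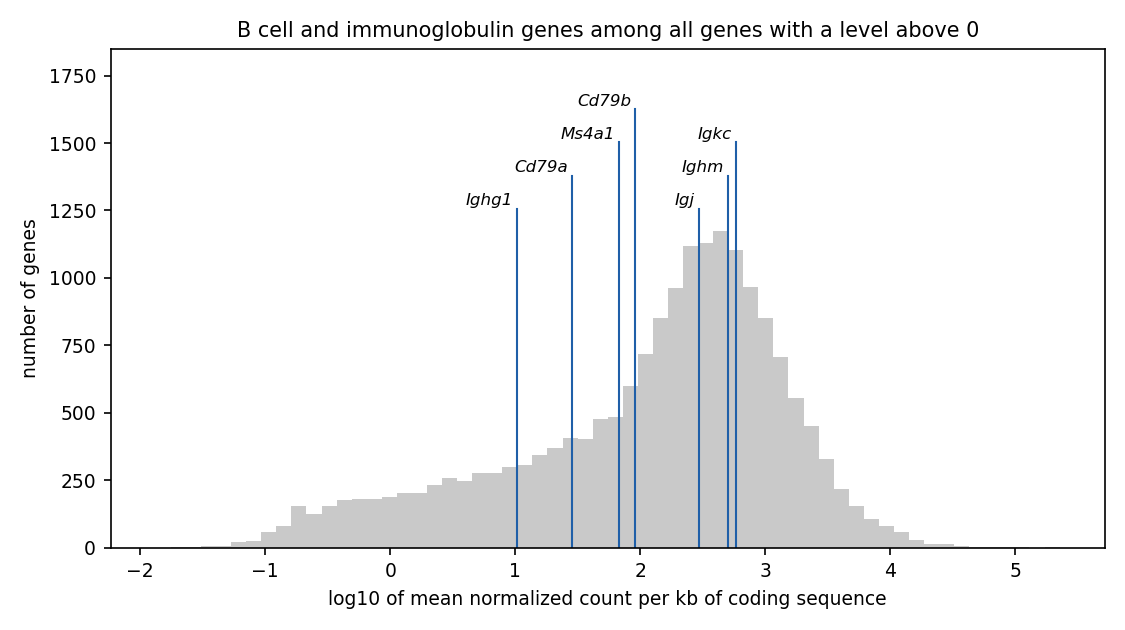
Number of genes (vertical axis) by log10 of the mean normalized count per kilobase of coding sequence, for the 18375 genes with a coding length and a level above 0, with a line for each of the 7 genes. Igkc, Ighm and Igj lie near the peak of the distribution, and the other genes lie on its lower flank.

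The heavy chain constant genes lie on chromosome 12 (GRCm38, GENCODE M21), on the minus strand. Ighm lies at 113418558 to 113422730, Ighg1 at 113325240 to 113330523, Ighg2b at 113302965 to 113307933 and Ighg2c, which C57BL/6 strains carry in place of Ighg2a, at 113285325 to 113288932. Of 8 heavy chain constant genes listed, only Ighm, Ighg1 and Ighg2c had a row. Ighd, Ighg2b, Ighg3, Ighe and Igha were not analysed here.

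The IgG genes were lower than the IgM gene. Ighg2c had a mean normalized count of 39.38, or 32.52 per kb of coding sequence, between those of Ighm and Ighg1. Per kb of coding sequence, Ighm was 48.4-fold higher than Ighg1 and 15.4-fold higher than Ighg2c, and Ighg2c was 3.15-fold higher than Ighg1. Per kb of exons these ratios were 80.6, 12.7 and 6.33, so their order held on both scales while their size did not. The Ighg2c value rests on a shorter annotated transcript than that of Ighg1.

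Constant genes of the IgG classes resemble one another, and a read that lies wholly within a shared stretch can be assigned to either gene. Of the 31-base words in the annotated transcripts of Ighg1, 98.3% occurred in no other gene, whereas this share was 85.0% for Ighg2c and 90.7% for Ighg2b. For Ighm, Igkc, Igj and Cd79b it was 100%, and for Ms4a1 97.8%. The longest stretches that Ighg1 shares with Ighg2b and Ighg2c are given as examples. Each is shorter than an untrimmed read of the study, so such a read reaches into the flanking sequence. How often reads failed to tell these genes apart was not tested. Both stretches are coding sequence, given on the minus strand from the GENCODE M21 transcripts and in lower case, since no motif is marked.

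The run of 59 bases shared by Ighg1 and Ighg2b lies in exon 5 of 6 of Ighg1 at chr12:113327476-113327534 and in exon 5 of Ighg2b at chr12:113304943-113305001. The run of 37 bases shared by Ighg1 and Ighg2c crosses the junction of exons 5 and 6 and lies within 113326605 to 113327458 in Ighg1 and 113285389 to 113285928 in Ighg2c.
Ighg1 and Ighg2b: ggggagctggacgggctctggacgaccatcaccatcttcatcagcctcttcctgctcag
Ighg1 and Ighg2c: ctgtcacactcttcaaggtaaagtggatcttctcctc

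Both runs belong to the last exons of the longer transcript, which encode the membrane anchor of the receptor form of the chain. The table gives 1 value per gene, so the receptor and the secreted form of Ighm or Ighg1 were not separated. The values of Ighg1 and Ighg2c are uncertain to the extent that reads of Ighg2b and Ighg3, which have no row, were assigned to them, and how far this happened was not tested.

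Light chain genes were present for both kinds of chain. Igkc is a single exon on chromosome 6 at 70726435 to 70726966 (GRCm38, plus strand). The lambda constant genes Iglc2 and Iglc3 had mean normalized counts of 16.38 and 8.38, or 51.99 and 26.70 per kb of coding sequence, below the 581.6 of Igkc. Iglc1 and Iglc4 had no row.

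Variable segments, of which each B cell clone uses its own, were listed one by one at low levels. For the kappa chain the table had 100 rows, 69 of them above 0 and 3 of at least 10, and their levels summed to 197.3 normalized counts. Those 3 ran from 15.07 to 35.30, with Igkv3-4 the highest and Igkv3-2 (20.76) next. The 5 kappa joining segments summed to 7.88. All 3 lambda segments were above 0, led by Iglv1 with 18.10.

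Heavy chain variable segments were fewer and lower. The table had 37 rows, 21 of them above 0 and 0 of at least 10, with a sum of 28.50, and the highest were Ighv1-54 with 4.31, Ighv3-8 with 3.35 and Ighv9-3 with 2.75. Of the functional segments in GENCODE M21, 30.1% of 113 had a row for the heavy chain, against 94.0% of 100 for kappa and 100% of 3 for lambda. Sums of heavy and kappa segments therefore do not cover the same part of each locus, and the level of heavy chain segments without a row was not analysed here.

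The partners of the B cell receptor differed in level. Cd79b, on chromosome 11 at 106311341 to 106314762, was 3.19-fold higher than Cd79a, on chromosome 7 at 24897381 to 24902197, per kb of coding sequence and 4.25-fold higher per kb of exons. Their products pair as a heterodimer. Of the words of Cd79a, 87.8% occurred in no other gene, and the 174 shared words lie in the pseudogene Gm32220, which had no row. Ms4a1, on chromosome 19 at 11249675 to 11266241, was 2.37-fold higher than Cd79a per kb of coding sequence but at a ratio of 0.740 per kb of exons, so the order of this pair depends on the length used.

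Set against the receptor genes Cd79a, Cd79b and Ms4a1, Ighm and Igkc were higher than all 3 as levels, per kb of coding sequence and per kb of exons. The other 4 constant genes with a row were each lower than Cd79b on these scales, but their place against Cd79a and Ms4a1 varied. Per kb of coding sequence Iglc2 (51.99) and Ighg2c (32.52) lay between Ms4a1 and Cd79a, and Iglc3 (26.70) and Ighg1 lay below Cd79a. Per kb of exons Ighg2c (29.70), Iglc2 (26.76) and Iglc3 (18.55) lay above both Cd79a and Ms4a1, and Ighg1 lay below them. The 6 constant genes with a row summed to 976.2 normalized counts and the receptor genes to 155.6, a ratio of 6.27 for levels not divided by length. It was 1.69 without Ighm, 5.08 without Igkc and 0.490 without both. With each level first divided by its coding length, the ratio was 6.46, and it was 3.78 without Ighm, 3.34 without Igkc and 0.653 without both. With division by the length of all exons these ratios were 10.5, 5.58, 5.95 and 1.04, and with the coding length less 200 bases they were 9.77, 7.40, 3.46 and 1.09. Which of Ighm and Igkc weighed more in the ratio thus depended on the length used. The ratios per kb, and those that leave out both genes, were added once the data were known. Per kb of coding sequence, Ighm was 5.53-fold higher than Cd79b.

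Igj and Mzb1 were listed with the genes of plasma cells and antibody secretion, and whether cells that secrete antibody gave their signal was not tested. Igj, named Jchain in GENCODE M21, lies on chromosome 5 at 88519809 to 88527891. Mzb1 encodes a chaperone of the endoplasmic reticulum that helps IgM assemble, and lies on chromosome 18 at 35647267 to 35649367. Under its older name 2010001M09Rik it had a mean normalized count of 9.13, or 16.18 per kb of coding sequence, below every receptor gene of the set on the same scale. Only 44.9% of its words occurred in no other gene, the rest being shared with a longer annotated transcript that runs from this locus into that of Spata24, so its value is uncertain.

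The other 10 genes listed for plasma cells all had a row, with 9 at a level of at least 10 and 6 at a level of at least 100. The highest were Txndc5 with 2727, Xbp1 with 2127 and Sdc1 with 1136. Txndc5 is a protein folding enzyme, Xbp1 a transcription factor of the unfolded protein response and Sdc1 a cell surface proteoglycan that epithelia also make, so none of the 3 is restricted to plasma cells. Tnfrsf17, the plasma cell receptor BCMA, had 5.07, and Pou2af1, a coactivator of immunoglobulin transcription, had 16.50.

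B cell identity genes covered a wide range. All 22 genes of the receptor and identity list had a row and a level above 0, 19 had a level of at least 10 and 6 one of at least 100, while 8 exceeded the median of 82.1 over genes above 0. The highest were Ebf1 with 1034, Cd72 with 267.2 and Cd22 with 237.2. Ebf1 is a transcription factor that B cells need and that mesenchymal cells also express. Pax5, the transcription factor that maintains B cell identity, had 6.81. The median of the list was 27.78 per kb of coding sequence, under the median of 214 over the 18375 genes with a coding length and a level above 0.

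Genes of B cell precursors in bone marrow were low. Of 6 listed, Vpreb2 was listed at 0 and the other 5 were below 10. Rag1, which cuts immunoglobulin genes for recombination, had 3.74, Vpreb1 3.13 and Rag2 1.56. The highest level of this list was thus below that of each of the 7 B cell and immunoglobulin genes.

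Factors that attract or sustain B cells were measured in the same tissue, and 5 of the 7 genes listed had a level of at least 10. Cxcl12, a chemokine made by stromal cells, had 4619 and its receptor Cxcr4 418.6. Tnfsf13, the survival factor APRIL, had 85.03. Cxcl13, the chemokine of B cell follicles, had 4.32, and its receptor Cxcr5 19.40. Of the antibody receptors, Fcgrt, which recycles IgG, had 3696, whereas Pigr and Fcamr, which bind polymeric antibody, had 11.15 and 8.75.

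The labelled tissue was checked against its markers. All 8 RPE genes had a row, led by Ttr with 99321, Dct with 89145 and Tyrp1 with 59379, and 7 of them were at a level of at least 100. Rpe65 had 43745, and Best1, the RPE gene below 100, had 69.8. All 5 endothelial genes had a level of at least 100, led by Kdr with 6377, Plvap with 2359 and Tek with 2323. Genes of red blood cells were present too, with Hba-a1 at 2316, Hba-a2 at 827.8 and Alas2 at 802.3. The share of blood in the B cell signal was not tested.

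Levels of other leukocyte markers are given beside these. Cd79a, Cd79b and Ms4a1 lay between 28.36 and 90.45 per kb of coding sequence and between 9.50 and 54.61 per kb of exons. The 12 T cell markers ran from 14.59 to 176.1 per kb of coding sequence with a median of 35.84, led as levels by Cd4 with 241.4, Lck with 54.30 and Cd2 with 38.06. The 9 macrophage markers with a row ran from 76.62 to 86871 per kb with a median of 1386, led as levels by Lyz2 with 38571, Csf1r with 4063 and C1qa with 3779. Per kb of exons the T cell markers ran from 2.84 to 59.88 with a median of 10.67. The range of the 3 B cell receptor genes lay within that of the T cell markers on both scales, but only through Cd4. The next highest T cell marker was Cd3g with 67.47 per kb of coding sequence and Trbc2 with 34.39 per kb of exons. Both lay below Cd79b on the same scale. The macrophage marker Cd163, at 76.62 per kb of coding sequence and 48.78 per kb of exons, lay below Cd79b on both scales, whereas the other 8 macrophage markers lay above all 7 B cell and immunoglobulin genes on both. Cd4 is also expressed by some macrophages. A median per list describes the genes chosen and is no count of cells, as cell types differ in RNA content.

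**Figure D3:**
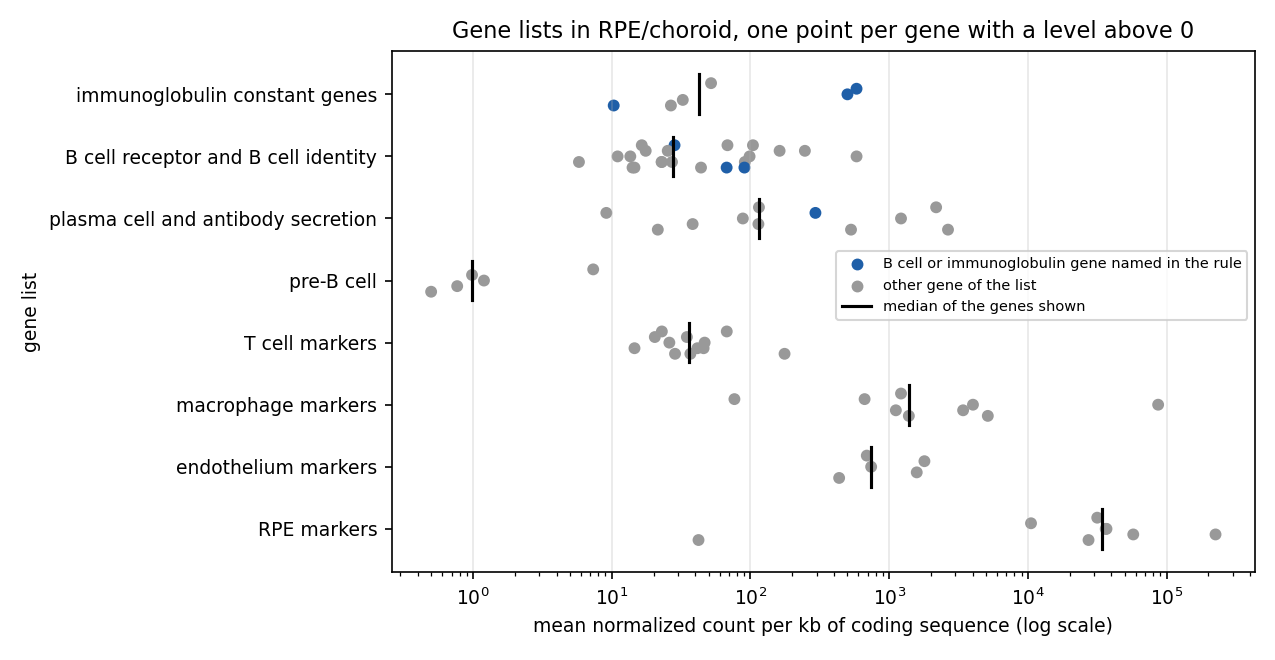
Mean normalized count per kilobase of coding sequence on a log scale for 8 gene lists, with 1 point per gene with a level above 0, a black line at the median of the genes shown, and the B cell and immunoglobulin genes of the set in blue. The B cell list spans 5.80 to 581.9 and the T cell list lies within that range, the medians of the macrophage, endothelium and RPE lists lie to their right, and Igkc and Ighm stand apart from the other constant genes.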

How the data were processed

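RPE/choroid RNA of 3 young and 3 aged mice was analysed. The authors trimmed reads with BBDuk, mapped them with STAR to Ensembl GRCm38 transcripts (release 82), estimated abundances with Sailfish 0.9.0, normalized these to total counts and tested age with DESeq2. The deposited table has 7 columns: the gene symbol, the mean signal over all libraries in normalized counts, and 5 of the authors' own comparison (log2 fold change, its standard error, the Wald statistic, p-value and adjusted p-value). The latter 5 were not used, and 0 columns name a sample, so no test, error or depth per library could be given and the planned count tests were not run. Values were described with Python 3.11.15 and pandas 2.3.3. Coding lengths are those of the longest coding transcript of each symbol in GENCODE M21 (GRCm38), found for 21447 of 33924 symbols, in place of the RefSeq protein lengths planned. Shared words are 31 bases long, on the forward strand. The members and lists were chosen with earlier results of these data known. Named were all members, the 3 highest genes of each list and those at 0. Other genes named from the lists were chosen after their values were seen.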

Additional observations from a re-analysis of the deposited data

How the results depend on the processing

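No paired analysis was possible because the columns used carry no replicate. The edgeR and DESeq2 fits, the replicate block and the fits that leave out 1 library were likewise not run. Of 67 values recomputed, 36 stayed within 1.5 times the reported value or at the same place in the order. With a minimum level of 100 in place of 10, 3 genes remained instead of 7. Without Ighm, the ratio of antibody to receptor genes was 1.69, and without Ighm and Igkc, an alternative chosen after the data had been seen, it was 0.490. With levels per kb of coding sequence, also chosen then, it was 3.78 without Ighm, 3.34 without Igkc and 0.653 without both, and with levels per kb of all exons it was 10.5 with all 6 genes and 1.04 without both. With the coding length less 200 bases it was 9.77 with all 6 genes, 3.46 without Igkc and 1.09 without both. Ranked among genes with a level of at least 10, the percentile was 37.5 for Igkc, 32.9 for Igj, 25.0 for Cd79b, 21.7 for Ms4a1, 8.24 for Cd79a and 2.61 for Ighg1, since the lowest genes leave the comparison. With 200 bases taken off the coding length, Igkc had 1551 and Igj 506 normalized counts per kb. With the length of all exons, chosen after the data had been seen, the values per kb were 350 for Igkc, 55.7 for Igj, 54.6 for Cd79b, 12.8 for Cd79a, 9.50 for Ms4a1 and 4.69 for Ighg1. Ighm then took place 1 and Igkc place 2, as they did without division by length, and Cd79a took place 5 and Ms4a1 place 6.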
